A study of Mus musculus with 3 samples.

Results

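The mouse immunoglobulin kappa (Igk) locus was taken as all gene records of GENCODE M21 on Chromosome 6 whose symbol starts with Igk and whose type is an immunoglobulin type. Only chromosomes with a peak in the deposited CTCF list entered the genome-wide values for peaks, gene records and motif sites given below. These chromosomes held 53843 gene records, and 166 met the Igk rule: 100 V genes, 60 V pseudogenes, 5 J genes and 1 constant gene, Igkc. The 166 records spanned chr6:67555497-70726966 of mm10 (GRCm38). The peaks from 300 kb before to 300 kb after this span, 3.77 Mb in all, were used. Of the 18945 CTCF peaks in the deposited list, 15 lay in this window. The peaks came from 1 ChIP-seq library with an antibody to CTCF, made from LSK cells (Lin- Sca1+ cKit+) of the bone marrow of adult male C57BL6 mice, with no treatment or altered allele given in the labels. LSK cells are a mix of hematopoietic stem cells and multipotent progenitors, sorted without lineage markers such as CD45R, a B cell antigen, and IL7Ra, a receptor of lymphoid progenitors. The list holds peaks only, so the sorted cells could not be checked against their markers. There was no replicate, so no difference below has a replicate check, and the intervals given cover counting error only.

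The Igk locus encodes the kappa light chain of antibodies. In developing B cells the RAG recombinase joins 1 V segment to 1 J segment, by deletion of the DNA between them where both lie on the same strand and by inversion where they do not, and the joined exon is spliced to Igkc. CTCF is a zinc finger protein that binds DNA at a long motif and, with cohesin, anchors chromatin loops whose ends often carry motifs pointing toward each other. In B cell precursors, CTCF-bound elements between the V and J segments, known as Cer and Sis, are known for their influence on which V segments are joined, and enhancers lie in the intron between J and Igkc and beyond Igkc. The annotations used here hold no positions for these elements, so no peak below was matched to one.

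The peaks are numbered from 1 to 15 along the chromosome, from the V side to the constant side. In each peak the site most like the CTCF core motif, a 12-letter pattern searched on both strands, was taken from the reference genome. A selection of these sites is shown with 20 bases on each side, read on the strand of the site, with the 12 bases of the site in capitals. Not shown are peak 1 (plus strand, 1 mismatch) and peak 3 of the V part (minus strand, 2 mismatches). On the constant side, peaks 10 and 11 (minus strand, no mismatch), peak 13 (plus strand, no mismatch) and peak 15 (minus strand, 1 mismatch) are also not shown.
Peak 2 in the V part (chr6:67699145-67699196, plus strand, 1 mismatch to the core motif): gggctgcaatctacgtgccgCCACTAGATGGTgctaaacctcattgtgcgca
Peak 4 in the V part (chr6:67858125-67858176, plus strand, 1 mismatch): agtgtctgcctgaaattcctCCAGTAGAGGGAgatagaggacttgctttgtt
Peak 5 in the V part (chr6:68033788-68033839, plus strand, 1 mismatch): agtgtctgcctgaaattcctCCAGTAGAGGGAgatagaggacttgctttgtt
Peak 6 in the V part (chr6:68668576-68668627, plus strand, 2 mismatches): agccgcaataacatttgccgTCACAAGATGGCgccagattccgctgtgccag
Peak 7 between V and J (chr6:70709450-70709501, minus strand, 1 mismatch): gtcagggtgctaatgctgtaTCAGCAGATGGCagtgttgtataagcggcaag
Peak 8 between V and J (chr6:70713261-70713312, plus strand, 2 mismatches): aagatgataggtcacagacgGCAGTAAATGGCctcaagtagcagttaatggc
Peak 9 between V and J (chr6:70714382-70714433, plus strand, 1 mismatch): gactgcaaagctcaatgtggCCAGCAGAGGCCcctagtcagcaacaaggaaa
Peak 12 on the constant side (chr6:70805475-70805526, plus strand, no mismatch): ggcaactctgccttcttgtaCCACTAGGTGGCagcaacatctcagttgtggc
Peak 14 on the constant side (chr6:70881109-70881160, minus strand, 1 mismatch): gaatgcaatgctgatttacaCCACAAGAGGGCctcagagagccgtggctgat
The 52 bases of peaks 4 and 5 were identical at all 52 positions. No best site of a peak in the V part or in the interval between V and J matched the motif in full. Those of peaks 10, 11, 12 and 13, on the constant side, did.

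The V part, from Igkv2-137, the first V record, to the end of Igkv3-1 (chr6:67555497-70704177, 3.15 Mb), held 160 V records and 5 peaks, or 1.59 peaks per Mb (95% Poisson interval 0.52 to 3.71). Chromosome 6 as a whole held 6.99 peaks per Mb, and all chromosomes 7.19. The 18.4 kb between Igkv3-1 and the first J record, Igkj1, held 3 peaks. No peak overlapped the J records, the intron between J and Igkc, or the Igkc exon, but these cover only 1366, 2507 and 532 bp. The 300 kb beyond Igkc held 6 peaks, or 20 per Mb (7.34 to 43.53), and the 300 kb before the V part held 1. The low density of the V part was not rare: of 750 autosomal windows of the same length, 14.3% had 5 peaks or fewer, and the median window had 20.

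**Figure D1:**
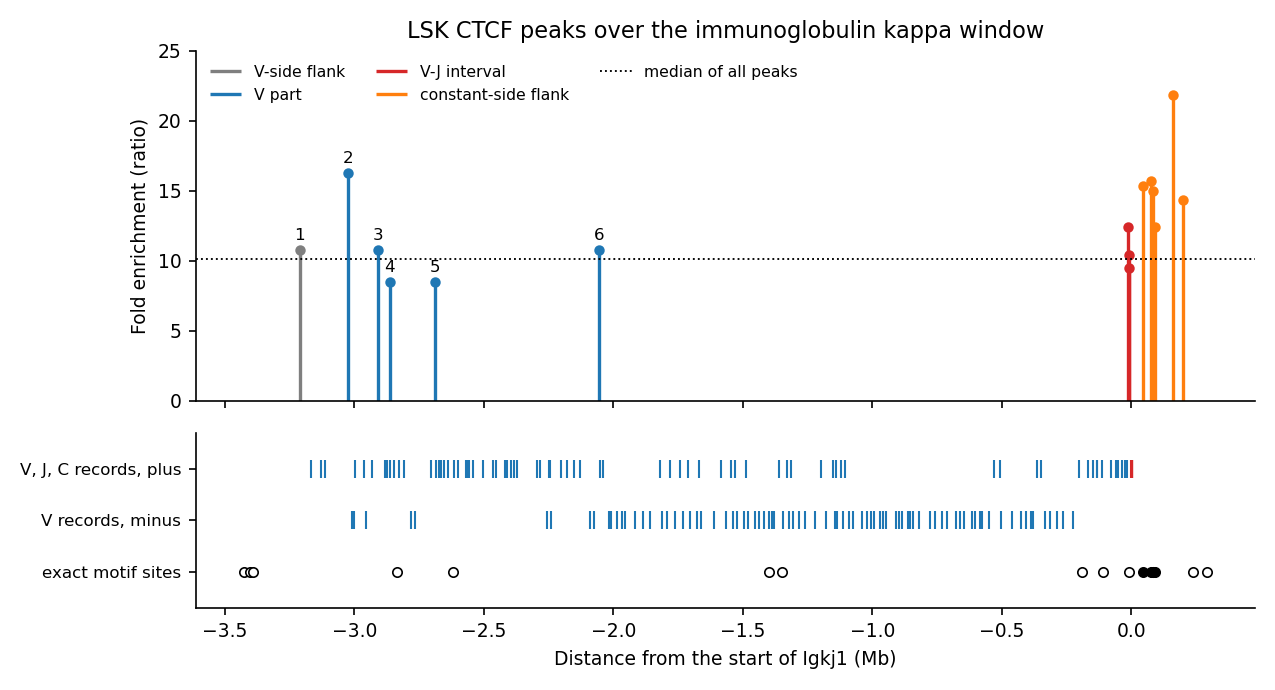
CTCF peaks of LSK cells over the Igk window. The upper panel gives the fold enrichment of each peak (y axis, ratio) by its distance from the start of Igkj1 (x axis, Mb), with peaks 1 to 6 numbered and the median of all 18945 peaks (10.12) dotted. In the lower panel each tick is 1 gene record on its strand (V in blue, J and Igkc in red), and each circle is an exact motif site, filled where it lies in a peak. No peak stood between peak 6 and peak 7, 2.04 Mb apart, and all 6 filled circles were on the constant side.

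All 5 peaks of the V part were in its first 1.11 Mb, on the side far from J. When the V part was divided into 4 equal pieces, they held 4, 1, 0 and 0 peaks, beside 36, 36, 49 and 39 V records. The end of peak 6 and the end of Igkv3-1 bounded a stretch of 2.04 Mb with no peak, the longest in the V part. It held 111 V records, 73 of them V genes, from Igkv2-95-1 to Igkv3-1. The stretch had no unknown bases. Between peak 6 and peak 7, the gap was 2040092 bp, and 123 of 18678 gaps between neighboring peaks on the autosomes were longer, with a median gap of 42.8 kb and a longest of 7.97 Mb. The next longest stretches without a peak inside the V part were 0.63 Mb, with 31 V records from Igkv17-121 to Igkv2-95-2, and 0.17 Mb, with 7 V records from Igkv17-127 to Igkv1-122.

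The strands of the V records changed along the same axis. The first piece held 31 V records on the plus strand, that of the J records, and 5 on the minus strand. The second held 16 and 20, the third 12 and 37, and the fourth 16 and 23. So the piece with 4 peaks was also the piece in which most V records had the orientation of J, and both were counted over the same DNA.

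The peaks of the V part had fold enrichments, the authors' ratio of ChIP reads to the expected background, near those of other peaks of the genome. Peak 2 (chr6:67698817-67699685) was the strongest. Its fold enrichment was 16.29 and its −log10 p-value 37.597, and 87.9% of all peaks had a lower fold enrichment. Peak 3 (chr6:67812309-67812819) and peak 6 (chr6:68668169-68669009) both had 10.77, with −log10 p-values of 13.649 and 16.614. Peak 4 (chr6:67857822-67858533) and peak 5 (chr6:68033426-68034215) both had 8.48, with −log10 p-values of 10.667 and 10.708, and 30.9% of all peaks were lower in fold enrichment. The median of these 5 peaks was 10.77, and that of all peaks 10.12. Equal values were common in the list, in which 18945 peaks shared 506 distinct fold enrichments.

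All 5 peaks of the V part were intergenic, and each lay beside V records whose order and type could be given. Peak 2 was 88309 bp after Igkv1-135 and 11489 bp before the pseudogene Igkv14-134-1. Peak 3 lay between the V gene Igkv14-130, 20798 bp away, and Igkv9-129. Peak 4 was 2620 bp upstream of the V gene Igkv17-127, with the pseudogene Igkv9-128 at 9948 bp on its other side. Peak 5 was 2597 bp upstream of the V gene Igkv17-121. Peak 6 was 2153 bp upstream of the pseudogene Igkv2-95-1. The last 3 of these V records were all on the plus strand, and their peaks were at much the same distance before them.

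Peaks 4 and 5 shared more than their sites. Over 712 bp they aligned with 96.9% identity, and the V genes beside them, Igkv17-127 and Igkv17-121, belong to the same V family and stood 2620 and 2597 bp away. The third Igkv17 record, the pseudogene Igkv17-134, was 21044 bp from its nearest peak. Of the 20 V families, Igkv17 was the only one with more than 1 member within 10 kb of a peak. The paper's methods state that reads mapping to several places were kept, and only 37.7% and 32.1% of the 31-mers of peaks 4 and 5 occurred once in the genome. Whether the same reads made both peaks was not tested.

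Repeated sequence was common over the V part, and its peaks held less unique sequence than the others. Peak 2 had 39.8% of its 31-mers unique, peak 3 had 70.3% and peak 6 had 67%. On Chromosome 6, sampled at 1 position in every 200, 84.4% were unique. The 10 peaks outside the V part had 81.9% to 100%. The central 300 bp of peak 2 had 83 near copies (at least 90% identity over at least 240 bp) on 19 chromosomes, 5 of them at full identity and none in the window. A peak overlapped 71 of these copies, with fold enrichments from 5.22 to 26.76 and a median of 13.38. By the paper's methods, reads mapping to several places were kept, and whether peak 2 and the peaks at its copies share reads was not tested. Peak 3 had 1 near copy in the V part, at chr6:67982395-67982696 with 93.4% identity and 27681 bp from Igkv9-123, and it was not under a peak. With only peaks that have no near copy, an alternative chosen after the data were seen, the V part held 1 peak, peak 6.

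**Figure D2:**
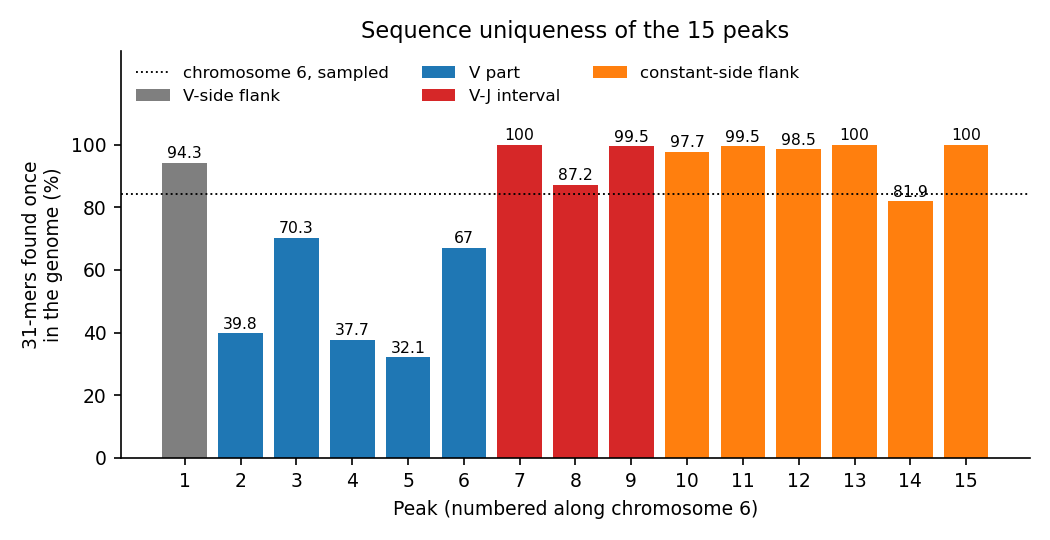
Share of the 31-mers of each peak that occur once in the reference genome (y axis, percent), by peak number (x axis) and colored by where the peak lies. The dotted line is the share over sampled positions of Chromosome 6, 84.4%. The 5 peaks of the V part ranged from 32.1% to 70.3%, and every other peak was at 81.9% or more.

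The stretch without a peak also had little unique sequence, with 53.6% of its 31-mers unique, beside 61.7% in the V part up to peak 6. In soft-masked repeats both were alike, at 51.7% and 52.4%, and in GC content too, at 38.6% and 39.0%. The 300 kb beyond Igkc had 92.3% unique 31-mers, 31.3% masked bases and a GC content of 44.5%. The part of mappability and base composition in the low peak count was not tested.

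V records were far from CTCF peaks. None of the 160 overlapped a peak, and none had a peak within 1 kb, beside 17.9% of all gene records. Of the 9620 gene records within 1 kb, 8299 overlapped a peak, and a longer record has more room to hold one. Records were not matched for length, here or at the distances below. Within 10 kb, 5 of 160 V records (3.12%) had a peak, beside 32.5% of all gene records, and within 50 kb it was 28 (17.5%), beside 59.7%. The median distance from a V record to the nearest peak was 312.3 kb, with a range from 2.2 to 1012.4 kb, and the median over all gene records was 29.9 kb. V records lie side by side and share their nearest peaks, so they are not independent of each other.

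The 5 V records within 10 kb of a peak were Igkv2-95-1 at 2153 bp, Igkv17-121 at 2597 bp, Igkv17-127 at 2620 bp, Igkv3-1 at 4924 bp and Igkv9-128 at 9948 bp. Of these, 3 are V genes and 2 are pseudogenes: 3% of V genes and 3.33% of V pseudogenes were within 10 kb. All 5 were on the plus strand. The median distance was 135.9 kb for the 75 V records on the plus strand and 570.0 kb for the 85 on the minus strand, which lie more often in the stretch without a peak. For the 49 V records before that stretch, the median was 82.7 kb, and for the 111 in it, 528.6 kb, a split that follows from how the stretch was defined.

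**Figure D3:**
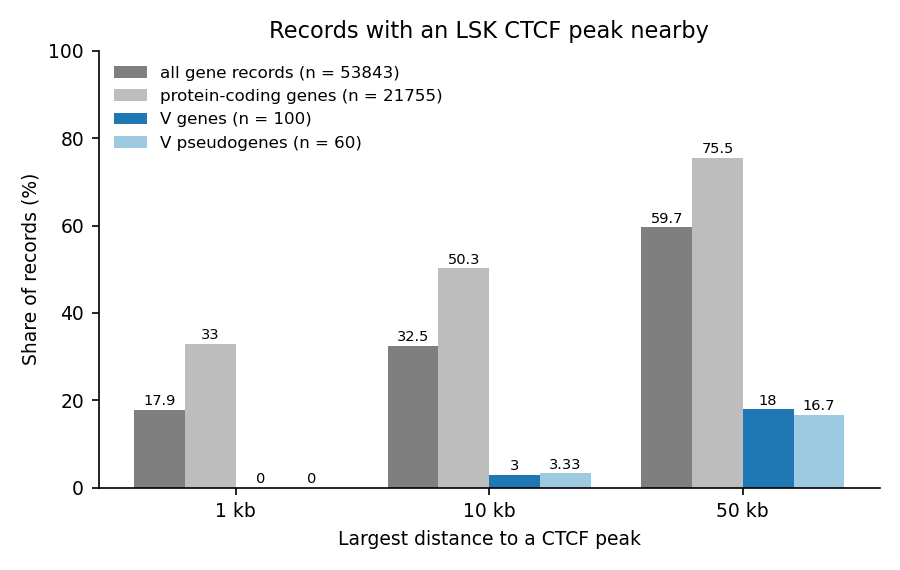
Share of gene records with an LSK CTCF peak within 1, 10 and 50 kb (y axis, percent), for all 53843 gene records, 21755 protein-coding genes, the 100 V genes and the 60 V pseudogenes. V genes and V pseudogenes were below both reference sets at each distance, with 18% and 16.7% within 50 kb. The sets were not matched for record length.

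The distances differed widely between V families. Igkv4, the largest with 33 records, had its closest member 86.0 kb from a peak and a median of 614.8 kb. None of the 18 Igkv13, 12 Igkv12 or 12 Igkv8 records was within 50 kb of a peak, and their medians were 543.9, 839.7 and 503.5 kb. Igkv5, with 6 records, was the farthest of the families with more than 1 record, at a median of 862.5 kb. In Igkv14, 6 of 8 records were within 50 kb (75%), and in Igkv9 4 of 6 (66.7%), shares near the 59.7% of all gene records, and their medians were 34.9 and 19.8 kb. All 3 Igkv10 records were within 50 kb too, the closest at 11.4 kb. Igkv3, which includes the last V record before J, had 5 of 13 within 50 kb.

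The CTCF core motif without a mismatch was sparse in the V part, and none of its copies was in a peak. There were 6 such sites in 3.15 Mb, or 1.91 per Mb, beside 8.41 on Chromosome 6 and 26.67 in the 300 kb beyond Igkc. Sites with up to 1 mismatch numbered 116.9 per Mb in the V part, 159.8 on Chromosome 6 and 171.3 over all chromosomes, so the V part was lower in both, and by more in exact sites. With 0 of 6 in a peak, the 95% Wilson interval reached 39.0%, which includes the 30.3% of exact sites that lay in a peak over the genome.

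The exact sites of the V part were 2484 to 12207 bp from a V record, with a median of 4180 bp, and the median over positions taken every 1000 bp of the V part was 5189 bp. Of the 6, 4 are shown with 20 bases on each side and the 12 bases of the site in capitals.
Site 8607 bp from Igkv14-126-1 (chr6:67885084-67885095, plus strand): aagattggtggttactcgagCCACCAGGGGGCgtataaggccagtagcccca
Site 2729 bp from Igkv11-118 (chr6:68102674-68102685, minus strand): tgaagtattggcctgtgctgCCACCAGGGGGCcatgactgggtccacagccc
Site 2484 bp from Igkv12-67 (chr6:69321682-69321693, minus strand): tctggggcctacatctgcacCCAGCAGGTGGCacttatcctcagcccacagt
Site 5405 bp from Igkv3-7 (chr6:70613441-70613452, minus strand): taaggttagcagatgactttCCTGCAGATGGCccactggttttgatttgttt
The site near Igkv12-67 lay 652673 bp from the nearest peak. A further site stood 2955 bp from Igkv4-63. The site 12207 bp from Igkv3-12 had the same 12 letters as the one near Igkv3-7, and the same 20 bases before them. This pair is not independent, although the Wilson interval above counts the 6 sites as independent. The coordinates here are those of the 12 bases alone. Distance to the nearest peak was never under 26551 bp for these 6 sites.

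Between Igkv3-1 and Igkj1, 3 peaks stood within 5575 bp. Peak 7 (chr6:70709101-70709737) had a fold enrichment of 12.40, and its −log10 p-value was 15.187. Peak 8 (chr6:70712895-70713605) had 9.46 and 9.671, and peak 9 (chr6:70714100-70714675) had 10.44 and 10.828. Their percentiles among all peaks were 67.3, 41.7 and 51.4 by fold enrichment, so none was among the strong peaks of the genome. Peaks 7 and 8 were 3158 bp apart and peaks 8 and 9 were 495 bp apart. Peak 7 began 4924 bp after Igkv3-1, and peak 9 ended 7887 bp before Igkj1 and 11760 bp before Igkc.

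The best sites of these 3 peaks did not all point the same way. A site on the plus strand points toward J and Igkc when read from the V part, and a site on the minus strand points back toward the V part. The best site of peak 7 was on the minus strand, and those of peaks 8 and 9 were on the plus strand. Peak 8 held no site with up to 1 mismatch. The 12 bases in peak 9 were the same as those in peak 1, which lies before the V part (chr6:67510591-67511334, fold enrichment 10.77, plus strand). Peaks 7 and 9 had 100% and 99.5% unique 31-mers and no near copy, and peak 8 had 87.2% and 1 near copy on Chromosome 19, where no peak was listed. An exact motif site also lay between peaks 7 and 8 on the minus strand, 1324 bp from a peak and under none.

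The central 300 bases of peaks 7 and 9 are given on the plus strand, since these are the peaks nearest to the J segments that hold a site with 1 mismatch, and the site is in capitals.
Peak 7 (chr6:70709270-70709569): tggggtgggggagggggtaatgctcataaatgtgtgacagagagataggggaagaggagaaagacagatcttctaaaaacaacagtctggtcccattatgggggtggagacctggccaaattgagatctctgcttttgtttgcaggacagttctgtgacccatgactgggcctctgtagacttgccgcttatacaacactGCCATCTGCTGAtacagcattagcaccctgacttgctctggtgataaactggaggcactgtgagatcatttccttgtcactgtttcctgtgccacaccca
Peak 9 (chr6:70714238-70714537): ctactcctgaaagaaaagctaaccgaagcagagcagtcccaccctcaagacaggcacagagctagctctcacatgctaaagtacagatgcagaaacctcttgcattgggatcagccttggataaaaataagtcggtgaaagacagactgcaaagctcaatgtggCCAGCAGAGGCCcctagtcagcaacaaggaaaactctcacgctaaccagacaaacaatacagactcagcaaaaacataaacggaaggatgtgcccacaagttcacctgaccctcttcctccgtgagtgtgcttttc
In peak 7 the capitals are the reverse complement of the site shown earlier, because its site is on the minus strand.

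The J segments had no peak of their own. All 5 J records (Igkj1 to Igkj5) were 7.9 to 9.2 kb from the same peak, peak 9, and Igkc was 11.8 kb from it. The next peak on the other side, peak 10, began 53961 bp after peak 9. The intron between J and Igkc, which holds an enhancer in B cells, had 2 sites with up to 1 mismatch in its 2507 bp and no exact site.

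Beyond Igkc the peaks were stronger. Peaks 10 to 15 had fold enrichments of 15.34, 15.66, 15.01, 12.40, 21.86 and 14.36, with a median of 15.18, beside 10.77 in the V part. Peak 14 (chr6:70880722-70881526) was the strongest of the window, and 97.8% of all peaks had a lower fold enrichment. It lay in an intron of Eif2ak3, which encodes PERK, a kinase of the endoplasmic reticulum stress response. Peak 10 (chr6:70768636-70769414) lay in an intron of Rpia, which encodes an isomerase of the pentose phosphate pathway. Peaks 11 to 13 were intergenic, 5447, 12077 and 19588 bp from Rpia, and peak 15 was 2748 bp from Tex37. The lowest value here, 12.40 in peak 13, equaled the highest of the interval between V and J, in peak 7.

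Peak 12 (chr6:70804309-70806546) was the widest of the window at 2238 bp, beside a median of 753 bp over the 15 peaks, and its −log10 p-value of 56.262 was above that of 99.1% of all peaks. It held 3 exact sites of the same 12 letters, spaced 724 and 628 bp, with 2 on the plus strand and 1 on the minus strand. In all, 6 of the 8 exact sites beyond Igkc were in a peak (75%), beside 30.3% over the genome, but 3 of the 6 were in peak 12 and are not independent. The best sites of peaks 10, 11, 14 and 15 were on the minus strand, pointing toward Igkc, and those of peaks 12 and 13 were on the plus strand. On the other side of the locus, the sites with 1 mismatch in peaks 1, 2, 4 and 5 were all on the plus strand, pointing toward J, but those of peaks 4 and 5 are copies. The best sites of peaks 3 and 6, on the minus and plus strands, have 2 mismatches.

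**Figure D4:**
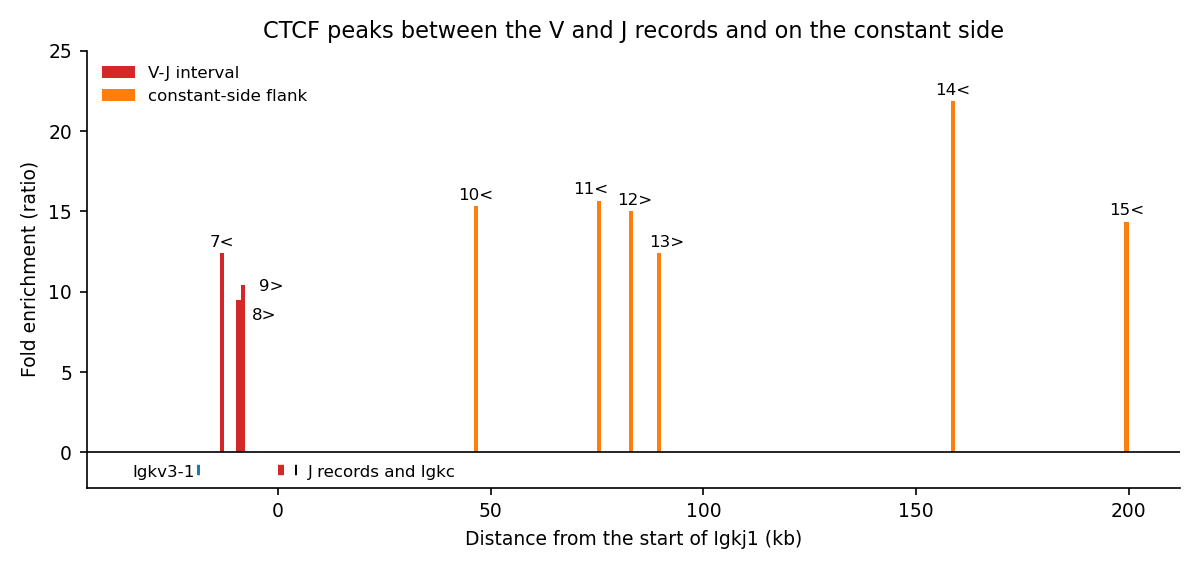
Peaks 7 to 15 by distance from the start of Igkj1 (x axis, kb) and fold enrichment (y axis, ratio). Bars are drawn 1 kb wide, and > and < give the plus and minus strand of the best motif site. The 3 peaks between V and J had 9.46 to 12.40 and the 6 beyond Igkc 12.40 to 21.86, with no peak over the J records or Igkc.

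Most peaks of the window held the core motif. With up to 1 mismatch it was in 12 of 15 peaks (80%, 95% Wilson interval 54.8% to 93.0%), beside 83.6% of all peaks and 17.4% of equally wide windows 10 kb to either side of all peaks. Without a mismatch it was in 4 of 15 (26.7%), beside 35.6% of all peaks, and all 4 were beyond Igkc. The 3 peaks without a site of up to 1 mismatch were peaks 3, 6 and 8. Over the window, 6 of 18 exact sites were in a peak (33.3%, interval 16.3% to 56.3%), beside 30.3% over the genome. The median distance from the center of a peak to its best site was 36.5 bp, and it was largest, at 121.5 bp, in peak 3.

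The 9472 peaks ranked first by false discovery rate included all 6 peaks beyond Igkc and peaks 2 and 3 of the V part. They included none of the 3 peaks between V and J, nor peaks 1, 4, 5 and 6. The 8 peaks kept are near the share that the length of this list sets. The order does not follow the −log10 p-value, since peak 3 (13.649) was kept and peaks 6 (16.614) and 7 (15.187) were not. With these peaks, 0 V records had one within 10 kb, beside 20% of all gene records, and the median distance was 742.9 kb for V records and 72.9 kb for all gene records.

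Other large antigen receptor loci gave more peaks per Mb in the same library. From the first to the last V record, the immunoglobulin heavy chain locus (Igh) held 14 peaks over 2.44 Mb, or 5.74 per Mb (3.14 to 9.64). The T cell receptor beta locus (Tcrb) held 9 over 0.67 Mb, or 13.49 per Mb (6.17 to 25.61), and the joint T cell receptor alpha and delta locus (Tcra-Tcrd) held 74 over 1.72 Mb, or 42.99 per Mb (33.76 to 53.97). The Igk interval of 0.52 to 3.71 overlapped that of Igh and neither of the others. These stretches are not alike: at Tcrb, where Trbv31 lies beyond the constant genes, the stretch is the whole locus, and at Tcra-Tcrd, where Trdv5 lies beyond Trdc, it takes in the delta D, J and constant genes. At Igk it leaves out J, Igkc and the 3 peaks before J. Over whole loci, Igk held 8 peaks, or 2.52 per Mb (1.09 to 4.97), Igh 16, or 5.81 (3.32 to 9.43), Tcrb 9, or 13.49 (6.17 to 25.61), and Tcra-Tcrd 74, or 41.20 (32.35 to 51.72). Of V records, 3.12% had a peak within 10 kb at Igk, 13.1% at Igh, 51.4% at Tcrb and 81.3% at Tcra-Tcrd. The longest stretch without a peak was 2.04 Mb at Igk and 0.61 Mb at Igh. These are counts of 1 library, and the loci were not tested against each other.

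The median fold enrichment of the peaks did not follow this order, with 10.77 at Igk, 9.95 at Igh, 8.81 at Tcrb and 10.44 at Tcra-Tcrd. Exact motif sites in a peak numbered 0 of 6 at Igk, 8 of 62 at Igh, 2 of 6 at Tcrb and 33 of 42 at Tcra-Tcrd. The Wilson interval of Igk, 0 to 39.0%, overlapped those of Igh and Tcrb and lay below that of Tcra-Tcrd, which began at 64.1%. GC content ranged from 38.7% at Igk to 41.2% at Tcra-Tcrd, and masked bases from 52% at Igk down to 41.0% at Tcra-Tcrd.

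**Figure D5:**
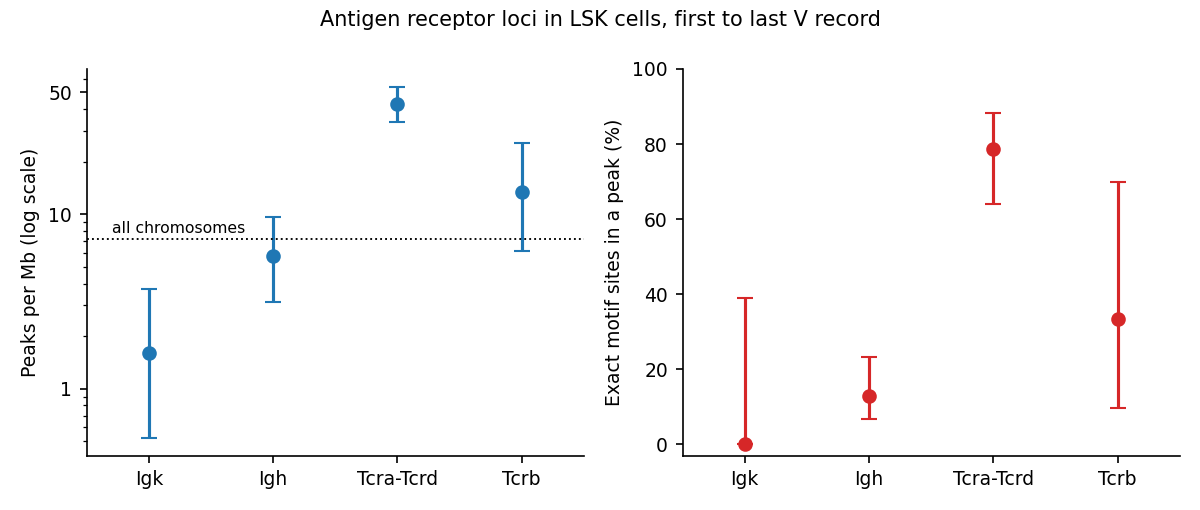
The stretch from the first to the last V record at 4 antigen receptor loci in LSK cells, which at Tcrb and Tcra-Tcrd includes D, J and constant genes. Left, CTCF peaks per Mb (log axis) with 95% Poisson intervals and the value over all chromosomes, 7.19, dotted. Right, the share of exact motif sites that lie in a peak (percent) with 95% Wilson intervals. Igk had the lowest value in both panels, with 1.59 peaks per Mb and 0 of 6 sites.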

How the data were processed

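By the paper's methods, reads were mapped to mm10 with Bowtie, keeping those that mapped to several places, and peaks were called with MACS. The submitters' processing notes name Bowtie 1.0.0, which is not the version in the paper's methods. Whether the paper's mapping steps apply unchanged to the deposited list could not be checked. The sources used here do not give the MACS settings or say whether the input was the control, and neither input was analyzed here. Read depth is unknown from the list. The deposited list gives for each peak the authors' fold enrichment (a ratio), −log10 p-value and a column read from the layout and values as a false discovery rate (q-value), of unstated scale, which served only to rank peaks. Members and lists were chosen with earlier results of these data known. Named by rule were the J records, Igkc, the V record nearest each peak of the V part, the first and last V records, those at the ends of the 3 longest stretches without a peak, and in the flanks the nearest protein-coding gene. Other V records, the V families and the records beside unoccupied sites were chosen after their values were seen.

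Positions (1-based) and sequences came from GENCODE M21 and GRCm38.p6, using Python 3.11.15, numpy 2.4.6, pandas 2.3.3, scipy 1.17.1 and blastn 2.17.0. Distances ran to the nearest peak edge, and a site counted as occupied when it lay whole in a peak. Intervals were exact Poisson or Wilson at 95%. Another 16 V records with other symbols in the span were left out, and the closest was 55.1 kb from a peak. Steps were tested on simulated data.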

Additional observations from a re-analysis of the deposited data

How the results depend on the processing

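Of 31 alternatives, 18 left the value within 1.5 times the reported one. With the 9472 peaks ranked first by false discovery rate, the window held 8 peaks, the V part 2 and the interval between V and J 0, no V record (0) had a peak within 10 kb, and the median distance was 742.9 kb. With only peaks that have no near copy, chosen after the data were seen, the V part held 1 peak and 2 V records had a peak within 10 kb. Near copies were sought for the peaks of the window only, so this count has no share over all gene records beside it. With all peaks, the number of V records with a peak was 0 at 1 kb and 28 at 50 kb, and 3 within 10 kb for V genes alone. The motif share was 26.7% with no mismatch, and the share of sites in a peak was 3.44% with up to 1 mismatch and 0% in the V part. By construction, the count of V records could not rise at 1 kb or fall at 50 kb. Nor could the motif share rise with no mismatch. The shares of sites in a peak were not fixed in this way, with 17 of 494 sites at up to 1 mismatch and 0 of 6 exact sites in the V part. No cause of a change was tested. No paired analysis was possible because there was 1 library, and none could be left out.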
